A study of Rattus norvegicus with 325 samples.

Results

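The 8 genes described here code for myosin light chains (Myl1, Myl2, Myl3, Mylpf and Myl6b) and for proteins that bind the myosin filament (Mybpc1, Mybpc2 and Mybph). They were chosen by symbol in the count files of rat skeletal muscle, where they are 8 of 17315 distinct symbols and each stands on 1 line. The animals were male rats of the outbred Sprague Dawley strain, and the labels name no treatment or altered gene. Diaphragm, gastrocnemius, soleus and tibialis anterior were each sampled at 6 months and at the older ages of 9, 12, 18, 21, 24 and 27. The 28 groups held 9 to 13 libraries each, and the comparisons below rest mostly on the 6 and 27 month groups, with 12 libraries each except for 10 and 11 in the gastrocnemius. The labels do not say which libraries share an animal, and tissues of 1 age were collected on 1 day, which means that the effects of age and of collection day cannot be told apart. These are whole pieces of muscle, in which fewer fibres of a type and less RNA per fibre cannot be told apart.

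Myosin, the motor of the thick filament, is built of heavy chains that each carry an essential and a regulatory light chain. Fast fibres use Mylpf as the regulatory and Myl1 as the essential chain, and slow fibres use Myl2 and Myl3 in these roles, while Myl6b is a further essential chain. The myosin-binding proteins C sit on the thick filament at regular stripes and tune how heads meet actin, with Mybpc1 as the slow and Mybpc2 as the fast form. Mybph, myosin-binding protein H, is a shorter relative that also sits on the thick filament.

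Promoter windows are shown for the light chains that rose together in old soleus and for the binding proteins that fell together in old tibialis anterior, so that their starts can be compared. They are the 250 bases before each start in RefSeq on the build GRCr8, read on the strand of the gene, and capitals mark matches on either strand to the motifs searched. Those were the E-box CANNTG, bound by myogenic factors, the MCAT element CATTCC, the MEF2 site and the CArG box. RefSeq lists Mylpf as Myl11, at chr1:191260039-191260288 on the plus strand. Myl1 has a start at chr9:75897800-75898049 and an upstream one at chr9:75907697-75907946, Mybpc1 lies at chr7:24903374-24903623 and Mybpc2 at chr1:104154102-104154351, all on the minus strand.
Mylpf: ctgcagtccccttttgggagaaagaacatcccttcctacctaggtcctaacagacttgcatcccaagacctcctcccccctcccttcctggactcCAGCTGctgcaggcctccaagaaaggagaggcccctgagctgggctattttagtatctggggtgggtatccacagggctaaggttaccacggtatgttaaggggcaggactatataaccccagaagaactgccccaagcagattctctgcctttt
Myl1, inner start: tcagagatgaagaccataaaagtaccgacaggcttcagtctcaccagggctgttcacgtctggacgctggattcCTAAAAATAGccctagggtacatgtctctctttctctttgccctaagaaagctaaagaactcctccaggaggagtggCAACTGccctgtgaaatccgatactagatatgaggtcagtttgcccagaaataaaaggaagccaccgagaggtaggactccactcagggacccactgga
Myl1, upstream start: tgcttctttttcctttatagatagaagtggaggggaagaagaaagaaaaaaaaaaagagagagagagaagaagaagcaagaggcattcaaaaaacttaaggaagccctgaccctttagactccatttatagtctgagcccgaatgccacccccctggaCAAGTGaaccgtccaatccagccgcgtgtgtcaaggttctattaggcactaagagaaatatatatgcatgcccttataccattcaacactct
Mybpc1: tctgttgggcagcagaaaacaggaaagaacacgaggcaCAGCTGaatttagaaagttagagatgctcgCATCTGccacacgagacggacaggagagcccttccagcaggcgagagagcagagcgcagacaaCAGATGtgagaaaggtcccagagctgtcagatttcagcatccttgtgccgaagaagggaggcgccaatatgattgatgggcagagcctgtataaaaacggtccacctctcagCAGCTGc
Mybpc2: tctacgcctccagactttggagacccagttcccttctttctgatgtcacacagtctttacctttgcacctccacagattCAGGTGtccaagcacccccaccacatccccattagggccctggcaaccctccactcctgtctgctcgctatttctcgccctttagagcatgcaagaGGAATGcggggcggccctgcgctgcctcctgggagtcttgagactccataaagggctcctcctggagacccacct

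Mylpf held 1 E-box and the Mybpc1 window 4, the inner Myl1 start 1 E-box and 1 MEF2 match, the upstream Myl1 start 1 E-box, and Mybpc2 1 E-box and 1 MCAT match. Among 33469 windows of the same length in the table, 65.5% held an E-box, 12.1% an MCAT element, 0.523% a MEF2 site and 1.5% a CArG box, so an E-box alone is common. A match is a run of letters and not a known binding site. The 2 Myl1 starts give different first exons of the essential chain, which counts per gene cannot separate.

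Libraries held 17.6 to 85.3 M counts (M, mega), with a median of 31.9 M. Levels are CPM, counts per M counts of a library after scaling by the trimmed mean of M values (TMM). None of the libraries were identical within a group. In the correlation of log2 CPM with the median of the group's other libraries, 15 stood apart from their group. In the groups compared most, these were replicates 8 and 9 of the soleus, 5 and 9 of the tibialis anterior and 5 and 6 of the diaphragm at 27 months, replicate 0 of the diaphragm and replicate 4 of the gastrocnemius at 6 months. Running numbers in the labels fell into 3 series, of which the first held all 73 gastrocnemius libraries and the third the 12 month libraries of the other muscles with 1 more of each at 21 months. The 6 and 27 month groups of a muscle therefore lie within 1 series, whereas gastrocnemius against another muscle cannot be told apart from the series. Within that series the 6 and 27 month libraries of the diaphragm and of the soleus held separate runs of numbers. Age and run of numbers cannot be told apart there. In the gastrocnemius the numbers of these ages interleaved.

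To see whether ageing changed these genes, limma-voom was fitted to each muscle with every older age set against 6 months. A gene was called when its Benjamini-Hochberg adjusted p was under 0.05 and its change exceeded 1.5-fold. At 27 months, 4 of the 8 genes were called in the soleus, where 15% of 12175 genes tested were called. The tibialis anterior also had 4 of 8, against 27.6% of 11754 genes tested. The gastrocnemius had 2 of 8, against 22.8% of 11865, and the diaphragm 1 of 8, against 7.52% of 12035. The ranges of the 27 and 6 month libraries did not overlap for Mybph and Mybpc2 in the gastrocnemius (14% of all genes) and for Mybph and Mybpc1 in the tibialis anterior (20.4%), and overlapped for all 8 genes in the diaphragm (2.8% of all genes apart) and soleus (5.7%). Mybph rose in all 4 muscles, Mylpf and Myl1 rose in the soleus, Mybpc2 fell in the gastrocnemius and tibialis anterior, Mybpc1 fell in the soleus and tibialis anterior, and Myl3 fell in the tibialis anterior. The median log2 change of the 8 genes was 0.52 for the soleus beside 0.019 over all genes tested, -0.37 beside 0.015 for the tibialis anterior, -0.059 beside 0.042 for the gastrocnemius and 0.083 beside 0.0026 for the diaphragm.

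**Figure D1:**
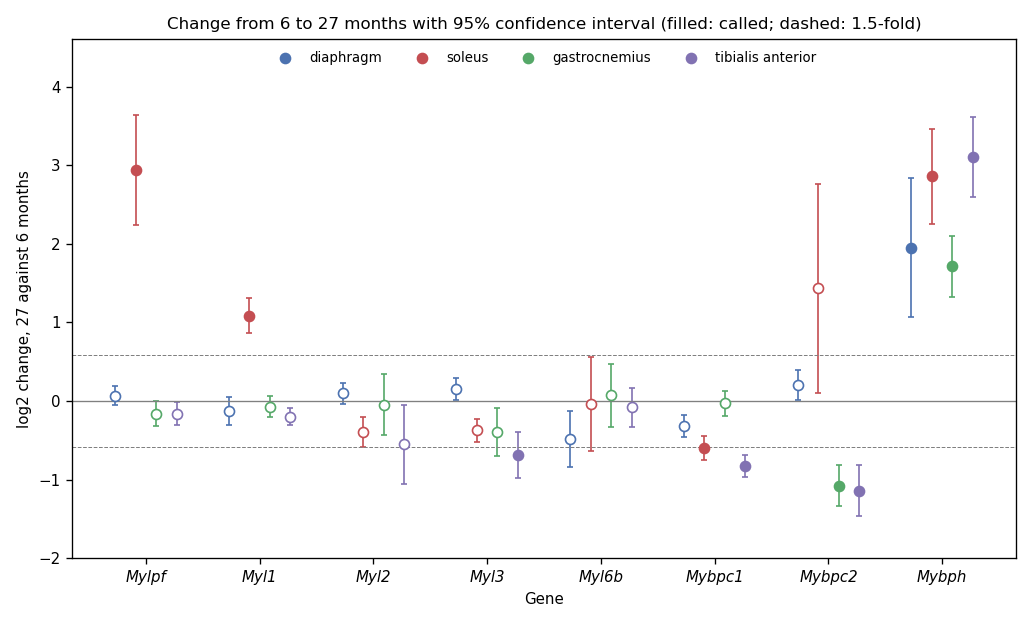
Log2 change from 6 to 27 months (vertical axis) for each of the 8 genes (horizontal axis) in 4 muscles (colours), with 95% confidence intervals; filled points were called and dashed lines mark 1.5-fold. Mybph is filled in all 4 muscles, and Mylpf, at 2.94 in the soleus, lies between -0.16 and 0.07 in the other muscles.

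Mylpf, the fast regulatory light chain, was lowest in the soleus at 6 months. Its level there ran from 39.4 to 253 CPM with a median of 113. The young diaphragm ran from 2156 to 3109 CPM with a median of 2566. The tibialis anterior had a median of 8334 CPM (7158 to 9247) and the gastrocnemius one of 8947 (8123 to 11479.8), and these muscles overlapped while the diaphragm and soleus lay apart from all others. In the joint limma-voom fit of all 28 groups, Mylpf was lower in the young soleus than in the tibialis anterior by 6.30 ± 0.21 (standard error, SE, as after every ± below) on the log2 scale, with a limma adjusted p of 3.04e-88.

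With age, Mylpf rose in the soleus. Its median CPM there was 74.4 at 9 months, 54.96 at 12, 75.6 at 18, 147 at 21, 197 at 24 and 884 at 27 months. At 27 months the 12 libraries ran from 136 to 1473 CPM, and 11 of them lay above the highest 6 month library. The exception was replicate 9, at 136 CPM, which lay within the 6 month range. The change was 2.94 ± 0.36 on the log2 scale, a 7.67-fold rise with a limma adjusted p of 4.72e-11, and at 24 months it was already 1.22. Even so the old soleus held 11.3% of the Mylpf level of the old tibialis anterior, where the young soleus had held 1.36% of the young one.

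In the other muscles Mylpf was not called at any age. Its medians at 27 months were 2796 CPM (diaphragm), 8131 (gastrocnemius) and 7853 (tibialis anterior), and the ranges overlapped those at 6 months in each. The changes were 0.07, -0.16 and -0.16 on the log2 scale, and with scaling to the total count those of the gastrocnemius and tibialis anterior became 0.12 and 0.15. That scaling moved the median of all genes by 0.28 in the gastrocnemius and 0.32 in the tibialis anterior, and relative to that median Mylpf lay at -0.20 and -0.19, beside -0.20 and -0.18 by TMM.

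Myl2, the slow regulatory light chain, had its highest young median in the soleus, at 445 CPM (339 to 517). The gastrocnemius followed with 341 CPM (221 to 432) and the diaphragm with 269 (226 to 346), and neighbours in this order overlapped. The tibialis anterior lay apart at 59.1 CPM (34.4 to 74.3). RefSeq names Myl2 also as a synonym of Myl11, the listed symbol of Mylpf, but the count files keep separate lines for Myl2 and Mylpf.

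Myl2 did not pass the threshold at 27 months in any muscle. In the soleus its median was 344 CPM (165 to 405), and 4 of 12 libraries lay below the young range. The change of -0.40 ± 0.10 had a limma adjusted p of 0.000328 but stayed within 1.5-fold. In the tibialis anterior the median was 33.5 CPM (16.6 to 97.8), a change of -0.55 ± 0.26 with an adjusted p of 0.0464 in limma. There 6 libraries lay below the young range and 2 above it. Leaving out replicate 11, 5 or 8 at 27 months or replicate 3 at 6 months brought a call, with changes of -0.67, -0.68, -0.63 and -0.62. At 24 months Myl2 was called in the tibialis anterior by limma-voom at -0.79, but edgeR gave -0.39 and DESeq2 -0.40 with adjusted p of 0.214 and 0.198.

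Myl1, the fast essential light chain, had medians of 11339 CPM in the young tibialis anterior (10609.9 to 12186) and 10552 in the gastrocnemius (9179 to 11883), which overlapped. The diaphragm had 2812 CPM (2440 to 3727) and the soleus 1895 (1463 to 2326), and these lay apart from each other and from the fast muscles. Myl1 rose in the ageing soleus to a median of 4158 CPM (2168 to 4946) at 27 months. Of the 12 libraries, 11 were above the young range, and replicate 9 at 2168 CPM was within it. The change was 1.09 ± 0.12, a 2.12-fold rise (limma adjusted p = 3.39e-13).

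By 27 months the order of the lower muscles for Myl1 had turned. The soleus median stood above that of the diaphragm, 2871 CPM (1728 to 4019), with overlapping ranges and a difference of 0.54 ± 0.09 that stayed within 1.5-fold. It passed 1.5-fold with sample weights (0.63), by the total count (0.67) and without the libraries that stand apart (0.68). The soleus level of Myl1 was 16.7% of that in the tibialis anterior at 6 months and 43.2% at 27 months. Changes of Myl1 in the other muscles (tibialis anterior, gastrocnemius, diaphragm) were -0.20, -0.07 and -0.12 on the log2 scale, and none passed the threshold.

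Myl3, the slow essential light chain, was highest in the young soleus at a median of 3099 CPM (2823 to 3484), apart from the diaphragm at 1186 (906 to 1298). The gastrocnemius at 1042 CPM (714 to 1350) overlapped the diaphragm, and the tibialis anterior was lowest at 618 (431 to 709). Myl3 fell in the tibialis anterior to 366 CPM (216 to 580.2) at 27 months, with 8 of 12 libraries below the young range and all 12 below the young mean. The change was -0.69 ± 0.15, a 1.61-fold fall (limma adjusted p = 3.81e-05). It had been -0.79 at 24 months. By the total count the change at 27 months was -0.36 and not called, but relative to the median of all genes it was -0.70 by both scalings, and Bonferroni gave an adjusted p of 0.208. In the soleus 11 of 12 old libraries lay below the young range, from 1434 to 3103 CPM with a median of 2409.6. The change there, -0.37 ± 0.08, had a limma adjusted p of 2.28e-05 and stayed within 1.5-fold. Changes in the gastrocnemius and diaphragm were -0.40 ± 0.16 and 0.15 ± 0.07.

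**Figure D2:**
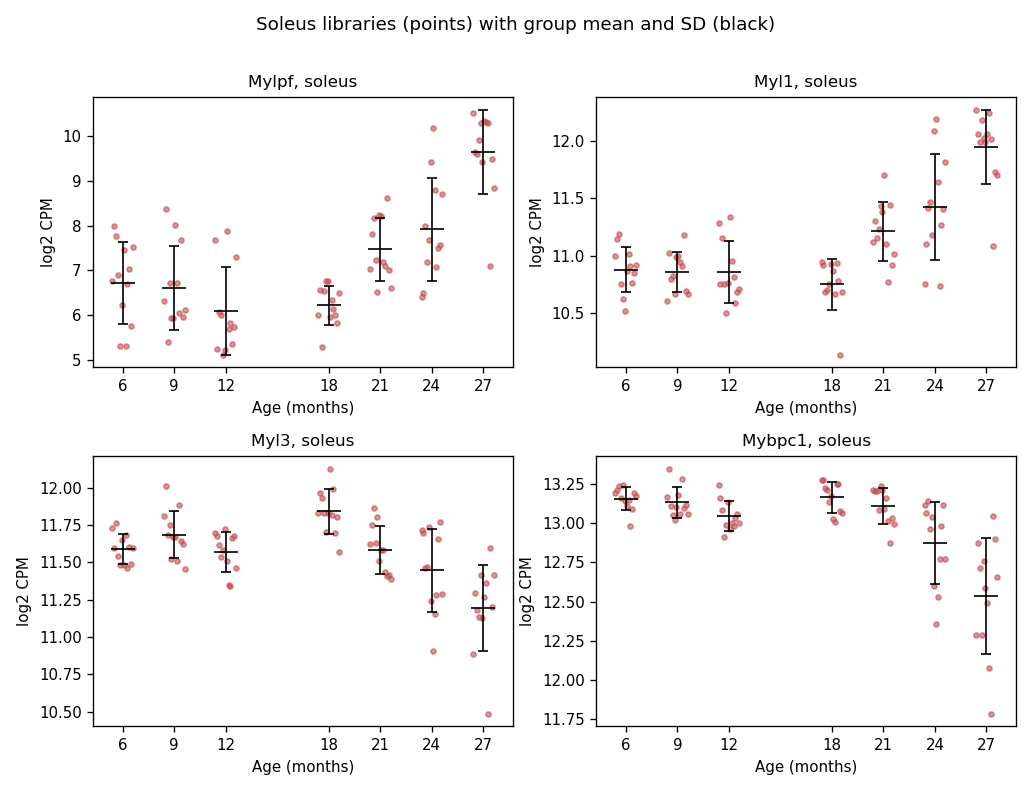
Log2 CPM (vertical axis) against age in months (horizontal axis) for Mylpf, Myl1, Myl3 and Mybpc1 in the soleus; each point is a library and black bars give mean and SD, and vertical scales differ. In each panel 11 of the 12 libraries at 27 months lie beyond the range at 6 months, above it for Mylpf and Myl1 and below it for Myl3 and Mybpc1.

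Myl6b, a further essential light chain, was detected at low levels. Its young median was 4.37 CPM in the gastrocnemius (2.50 to 6.73), where the tibialis anterior had 1.81, the diaphragm 1.12 and the soleus 1.02. The soleus and diaphragm overlapped, and the gastrocnemius lay above the rest. Limma-voom called Myl6b in 1 comparison with 6 months, that of the diaphragm at 12 months, with a change of -0.76 and an adjusted p of 0.0320 where 0.532% of genes were called. That call was lost with Bonferroni, and these 12 month libraries belong to the third number series. In the soleus at 12 months the change was -1.14 (limma adjusted p = 0.0972), and it was called by edgeR (-1.08, adjusted p = 0.0443), by DESeq2 (-1.08, 0.0207), with the replicate block (-1.14, 0.0448) and with sample weights (-1.14, 0.0325). With sample weights limma-voom also called Myl6b in the diaphragm at 18, 21 and 27 months, at -0.74, -0.61 and -0.61. At 27 months its medians were 5.41, 1.69, 0.831 and 0.945 CPM in the same order and none was called by limma-voom. Its unadjusted p was under 0.05 in 1 of these 4 tests, and edgeR and DESeq2 called 0 of them. That test was the diaphragm, where the change of -0.48 had a limma adjusted p of 0.0251 but stayed within 1.5-fold.

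The balance of fast and slow light chains can be followed within a library, where scaling cancels out. The log2 ratio of Mylpf to Myl2 counts in the soleus had a median of -1.77 at 6 months (-3.53 to -0.92) and of 1.36 at 27 months (-1.57 to 2.93). The ratio of Myl1 to Myl3 moved from -0.68 (-1.14 to -0.45) to 0.80 (-0.52 to 1.53). Both ranges overlapped between the ages, through the low end of the old group. Transcript length enters the ratio itself, so it is read only between ages and muscles.

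In the other muscles the medians moved less. The Mylpf to Myl2 ratio went from 3.24 to 3.19 for the diaphragm, from 4.84 to 4.63 for the gastrocnemius and from 7.19 to 7.70 for the tibialis anterior. The Myl1 to Myl3 ratio went from 1.35 to 1.01, from 3.40 to 3.44 and from 4.16 to 4.72. Libraries of the tibialis anterior and gastrocnemius spread out with age. The SD of the Mylpf to Myl2 ratio in the tibialis anterior was 0.373 at 6, 1.28 at 24 and 0.9704 at 27 months. At the same ages it was 0.343, 0.796 and 0.946 in the gastrocnemius. The soleus had 0.935, 1.36 and 1.16 and the diaphragm 0.158, 0.215 and 0.271.

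**Figure D3:**
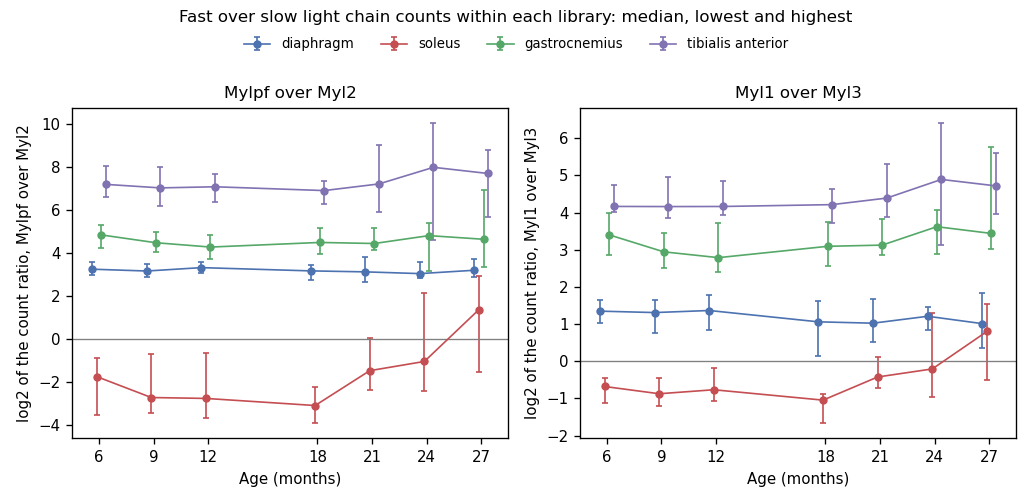
Log2 ratio of fast over slow light chain counts within each library (vertical axes) against age in months, with Mylpf over Myl2 on the left and Myl1 over Myl3 on the right; points are group medians, bars run from the lowest to the highest library and colours are muscles. The soleus median crosses 0 between 24 and 27 months in both panels, from -1.06 to 1.36 on the left.

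Mybpc1, the slow myosin-binding protein C, did not follow the slow light chains across young muscles. It was highest in the tibialis anterior at 10882 CPM (9952 to 11822), then in the soleus at 9199 (8085 to 9676), and these lay apart from each other. The gastrocnemius at 6772 CPM (4888 to 7406) and the diaphragm at 5819 (5044 to 7103) overlapped.

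Mybpc1 fell with age in the tibialis anterior. Its median was 10503 CPM at 9 months, 10324 at 12, 8685 at 18, 8747 at 21, 7415 at 24 and 5806 at 27 months. All 12 libraries at 27 months (4525 to 8639 CPM) lay below all 12 at 6 months. The change was -0.83 ± 0.07, a 1.77-fold fall (limma adjusted p = 5.14e-18). By the total count the change was -0.51 and not called, but relative to the median of all genes it was -0.85 by that scaling and -0.84 by TMM.

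In the soleus the fall of Mybpc1 was at the edge of the threshold. The old libraries ran from 3524 to 8442 CPM with a median of 6305, 11 of 12 below the young range and replicate 9 within it. The change was -0.60 ± 0.08, 1.51-fold (limma adjusted p = 2.26e-10). The change dropped under 1.5-fold without replicate 0, 3, 7 or 8 at 27 months (-0.58, -0.58, -0.56 and -0.53), without the libraries that stand apart (-0.57), in edgeR (-0.56), in DESeq2 (-0.57), with sample weights (-0.55) and with the total count (-0.45). In the diaphragm the change was -0.32 ± 0.07 and in the gastrocnemius -0.03 ± 0.08, neither called.

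Mybpc2, the fast myosin-binding protein C, had young medians of 5218 CPM in the tibialis anterior (4929 to 5908) and 4921 in the gastrocnemius (4259 to 5704). The diaphragm had 1383 CPM (989 to 1852). The soleus had 4.27 CPM, with libraries from 0.0984 to 31.5, that is from 3 to 1035 counts. The soleus and diaphragm each lay apart from the other muscles.

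Mybpc2 fell in both fast muscles. In the gastrocnemius the median was 3726 CPM at 21 months, 2358 at 24 and 2392 at 27 months, and the 11 old libraries (1141 to 3632 CPM) all lay below the young range. The change was -1.08 ± 0.13, a 2.11-fold fall (limma adjusted p = 2.03e-10). In the tibialis anterior the median was 4994 CPM at 21 months, 3868 at 24 and 2399 at 27 months. There 11 of 12 old libraries were below the young range, and the spread was wide, from 822 to 5272 CPM. The change was -1.14 ± 0.16, 2.21-fold (limma adjusted p = 3.44e-09).

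In the diaphragm Mybpc2 ran from 1105 to 2204 CPM at 27 months with a median of 1826, and its change of 0.21 ± 0.10 did not pass. In the soleus its median was 9.08 CPM (1.84 to 29.0), inside the young range in all 12 libraries. The change of 1.43 ± 0.68 had a limma adjusted p of 0.0674, and edgeR gave 0.91. A call appeared with sample weights (1.46, limma adjusted p = 0.0450) and by the total count (1.56, limma adjusted p = 0.0448). It also appeared without replicate 2, 3, 9 or 11 at 27 months (1.55, 1.56, 1.59 and 1.58) or replicate 0 at 6 months (1.71). The soleus level was 0.0818% of that in the tibialis anterior at 6 months and 0.378% at 27 months.

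**Figure D4:**
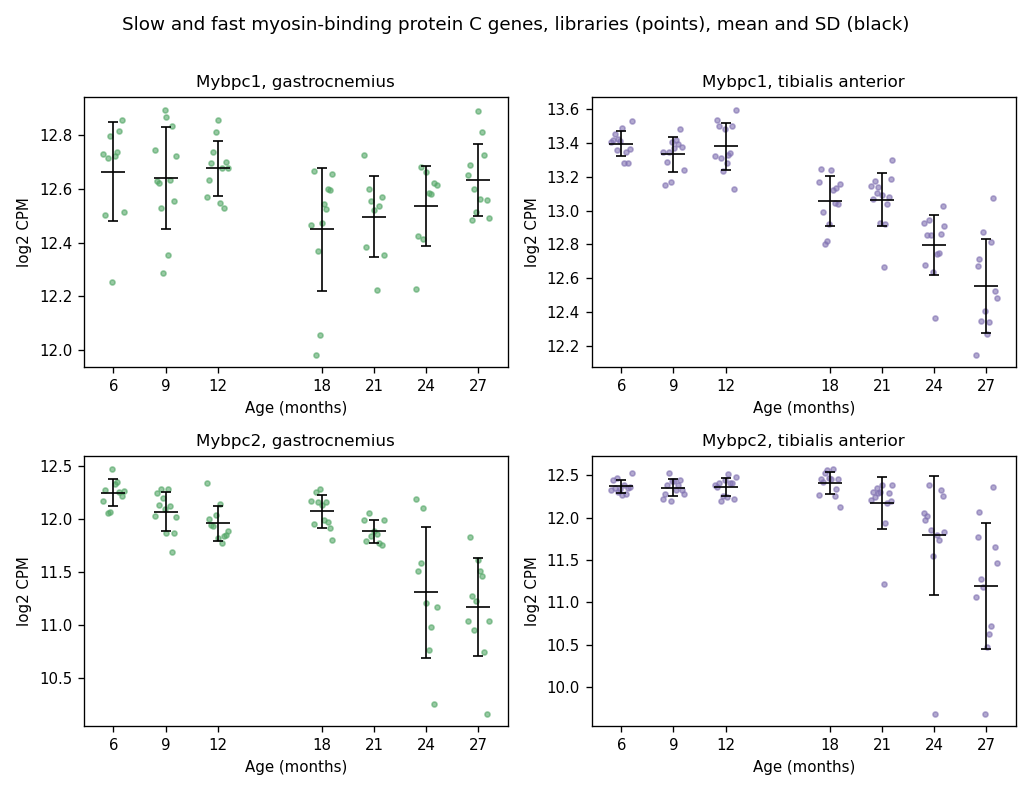
Log2 CPM (vertical axis) of Mybpc1 (top) and Mybpc2 (bottom) against age in months in the gastrocnemius (left) and tibialis anterior (right); points are libraries, black bars mean and SD. Vertical scales differ between panels. Mybpc2 is lowest at the last 2 ages in both muscles, with medians of 2392 and 2399 CPM at 27 months, and the Mybpc1 medians at that age are 6209.5 and 5806 CPM.

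Mybph, myosin-binding protein H, was the gene of the 8 that rose in every muscle. At 6 months its level ran from 108 to 223 CPM in the gastrocnemius (median 169.6), from 30.2 to 155 in the tibialis anterior (median 73.4) and from 14.9 to 41.8 in the soleus (median 24.8). In the diaphragm it ran from 2.27 to 27.9 CPM (median 8.55). Neighbouring muscles in this order overlapped.

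At 27 months the tibialis anterior ran from 349 to 931 CPM (median 610.4), above all young libraries. The gastrocnemius ran from 351 to 732 CPM (median 571), also above all young libraries. The soleus ran from 37.3 to 392 CPM (median 210.4), with 11 of 12 above the young range and replicate 9 within it, and the diaphragm from 9.42 to 101 (median 42.0), with 7 of 12 above it. The rise was 8.61-fold for the tibialis anterior (log2 change 3.11 ± 0.26, limma adjusted p = 2.71e-18), 7.25-fold in the soleus (2.86 ± 0.31, 5.5e-13), 3.28-fold in the gastrocnemius (1.71 ± 0.20, 1.3e-11) and 3.87-fold in the diaphragm (1.95 ± 0.45, 0.000238). With the Bonferroni adjustment the diaphragm missed the threshold at an adjusted p of 0.519.

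By limma-voom the first calls of Mybph came at 18 months. In the gastrocnemius the median was 291 CPM at 18 months, 312 at 21 and 462 at 24 months, and the changes of 0.67, 0.82 and 1.58 were called, where 4.32%, 5.81% and 18.8% of genes were. In the tibialis anterior it was 140.4 CPM at 18 months, 170.3 at 21 and 420.4 at 24 months, with changes of 1.02, 1.59 and 2.54 called beside 5.45%, 6.47% and 14.5% of genes. Both calls at 18 months and the gastrocnemius call at 21 months were lost with Bonferroni. In the soleus the first limma-voom call was at 24 months, at 76.8 CPM and a change of 1.66, where 6.51% of genes were called. At 21 months the soleus change of 0.71 had a limma adjusted p of 0.135, whereas edgeR gave 0.95 (adjusted p = 0.0217) and DESeq2 0.96 (0.0154), both called. In the diaphragm limma-voom first called Mybph at 27 months. Its change there at 21 months was 1.35 with a limma adjusted p of 0.0553, and it was called by edgeR (1.49, adjusted p = 0.0173), by DESeq2 (1.51, 0.00780), with the replicate block (1.35, 0.040), with sample weights (1.42, 0.0185) and without the libraries that stand apart (1.43, 0.0442).

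**Figure D5:**
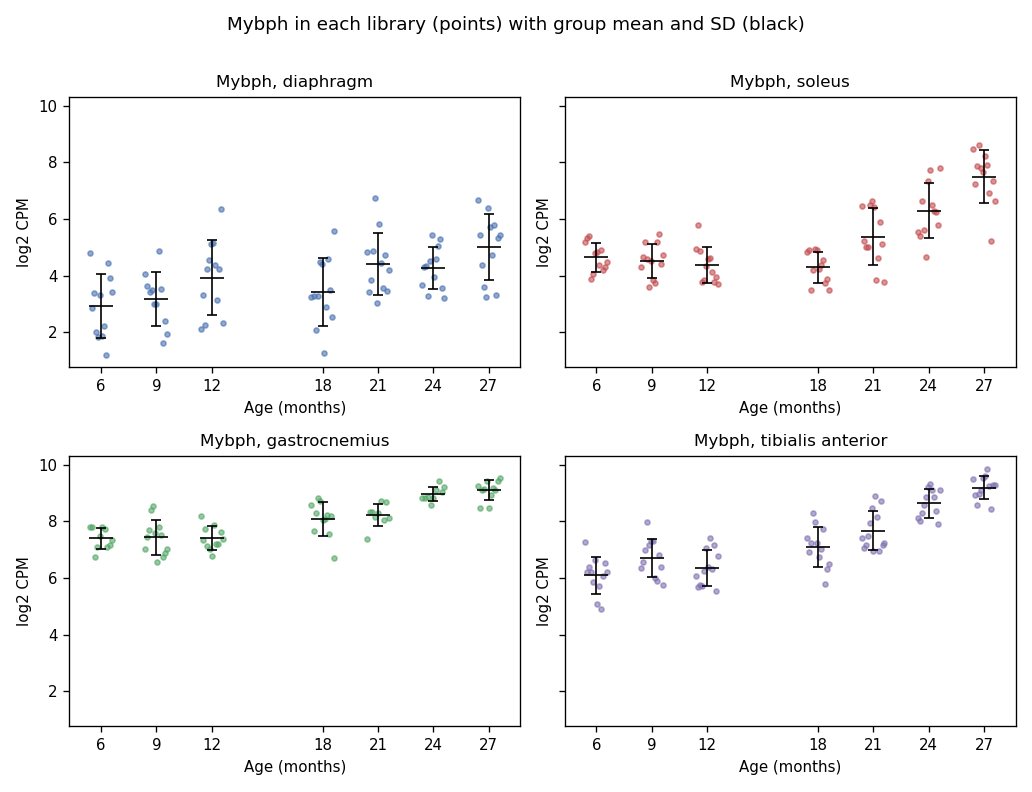
Log2 CPM of Mybph (vertical axis) against age in months (horizontal axis) in 4 muscles; points are libraries, black bars mean and SD. The 27 month libraries of the gastrocnemius and tibialis anterior all lie above their 6 month libraries, and the diaphragm stays lowest, with a median of 42.0 CPM at 27 months.

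Over all older ages, 24 of 192 tests gave a call, 13 of them before 27 months. Besides Mybph those were Mylpf in the soleus at 24 months, Mybpc2 in the gastrocnemius at 24 months (-0.94), Mybpc1 (-0.59), Myl2 and Myl3 in the tibialis anterior at 24 months, and Myl6b in the diaphragm at 12 months. The Mybpc1 change at 24 months was at the edge of the threshold and was not called with sample weights (-0.55), by the total count (-0.41) or without the libraries that stand apart (-0.56). The Mylpf call at 24 months was lost with Bonferroni. Myl1 in the soleus at 24 months was called by edgeR and DESeq2, at 0.62 in both, and not by limma-voom. In 12 of 24 comparisons limma-voom called none of the 8 genes, among them 9 months in all 4 muscles. Of all genes, limma-voom called 0.108% at 9 months, 2.25% at 18, 1.68% at 21 and 2.68% at 24 months in these diaphragm comparisons, 0.143% at 9 and 0.885% at 12 months in the gastrocnemius, 0.123%, 0.353%, 2.84% and 2.61% at 9, 12, 18 and 21 months in the soleus, and 0.00851% and 0.196% at 9 and 12 months in the tibialis anterior. In these 12, 22 of 96 tests had an unadjusted p under 0.05, and edgeR called 3 and DESeq2 3.

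The shape over age was described by the Bayesian information criterion (BIC) of a flat, a linear and a logistic model over the libraries of a muscle, with no p. A trend needed a BIC lower by 6 than the flat model. Of 32 gene and muscle pairs, 16 had a trend. The soleus had 6 of 8, where 40.2% of genes had one, and all 6 were logistic with an inflection after 21 months: Mylpf, Myl1 and Mybph rising, Myl2, Myl3 and Mybpc1 falling. The tibialis anterior had 5 of 8 against 64.9%. By the model Myl3, Mybpc1 and Mybpc2 fell late, Mybph rose late and Myl2 fell linearly. The inflections of Mybpc1 here and of Mylpf in the soleus were fitted at 27 months, the last age searched. By the total count the Mybpc1 fall was classed as linear. At 18 months, where Mybpc1 was not called, all 12 libraries already lay below its 6 month range. The gastrocnemius had 3 of 8 against 55.1%, with Mybpc2 falling late at an inflection of 22.5 months, Myl3 falling linearly and Mybph rising linearly by 0.089 on the log2 scale per month. The diaphragm had 2 of 8 against 29.6%, Mybph rising by 0.083 and Mybpc1 falling by 0.013 per month, both linear. With a BIC difference of 10 there were 14 trends, without Myl3 in the gastrocnemius and Myl2 in the tibialis anterior. By the total count those trends were lost as well, and Myl1 and Mylpf rose in both of these muscles, which gave 18.

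Whether the changes differed between muscles was tested as an interaction in the joint fit. Of 48 tests, 18 were called, and the percent of all genes called in each muscle pair is given in brackets. Soleus against gastrocnemius gave 4 of 8 (14.5%) and soleus against tibialis anterior 3 (15.8%), soleus against diaphragm 3 (11.9%), tibialis anterior against diaphragm 4 (20.3%), gastrocnemius against diaphragm 2 (21.6%) and tibialis anterior against gastrocnemius 2 (7.32%). The Mylpf change in the soleus exceeded that in each other muscle, by 2.82 ± 0.30 over the diaphragm, 3.09 ± 0.32 over the gastrocnemius and 3.10 ± 0.31 over the tibialis anterior. Myl1 did so by 1.15, 1.15 and 1.28. For Mybpc2 the fast muscles fell beyond the diaphragm by 1.33 ± 0.37 and 1.41 ± 0.36 on the log2 scale, and their own difference of -0.08 ± 0.38 was not called. The rise of Mybph was larger in the tibialis anterior than in the gastrocnemius by 1.40 ± 0.42 (limma adjusted p = 0.00662). Mybpc1 fell further in the tibialis anterior than in the gastrocnemius, by 0.80 ± 0.10 on the log2 scale.

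The muscles differed in these genes at both ages. At 6 months, 38 of 48 muscle pair tests were called. They were 8 of 8 for tibialis anterior against diaphragm (35.1% of all genes), 7 each for soleus against diaphragm (23.9%) and against tibialis anterior (42.9%), 6 for soleus against gastrocnemius (45.4%), 5 for gastrocnemius against diaphragm (37.3%) and 5 for tibialis anterior against gastrocnemius (17.3%). At 27 months 31 were called. The counts in the same order were 6 (27.4%), 4 (27.9%), 7 (31.7%), 6 (34%), 5 (32.3%) and 3 (10.4%).

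Some pairs called at 6 months were not called at 27 months. Between tibialis anterior and gastrocnemius, Mybph differed by -1.31 ± 0.30 at 6 months and by 0.09 ± 0.30 at 27 months, and Mybpc1 by 0.73 ± 0.07 and -0.07 ± 0.07. Between soleus and diaphragm, Myl2 differed by 0.69 ± 0.17 at 6 months and 0.13 ± 0.17 at 27 months. The interaction test did not call this Myl2 shift (-0.55, limma adjusted p = 0.0601), and the 6 month call was lost with Bonferroni. For Mybpc2 the tibialis anterior exceeded the diaphragm by 1.92 ± 0.25 at 6 months and by 0.51 ± 0.25 at 27 months. These pairs involve the number series as described above where the gastrocnemius is 1 of them.

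Other light chains and binding proteins were few. Of 8 in the files, 5 to 6 passed the filter in each muscle. Myl4, the embryonic and atrial essential light chain, rose in all 4 muscles at 27 months, by 2.33 ± 0.61 (diaphragm), 2.51 ± 0.36 (gastrocnemius), 2.41 ± 0.22 (soleus) and 2.31 ± 0.37 (tibialis anterior), from medians between 0.240 and 1.79 CPM to medians between 2.22 and 11.1 CPM. Myl12a, a regulatory chain of non-muscle myosin, rose by 1.14 in the gastrocnemius and 1.62 in the tibialis anterior. Mybpc3, the cardiac binding protein C, fell in the 3 limb muscles from medians under 1 CPM. Myl7, the atrial regulatory chain, was at 0 in every library of these ages but for a highest value of 0.0406 CPM in the young gastrocnemius.

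Of the light chain kinases and phosphatase subunits, 8 were tested in each muscle. Mylk2, the skeletal muscle light chain kinase that phosphorylates the regulatory chains, fell in the gastrocnemius from a median of 1569.9 to 390.3 CPM, a change of -1.98 ± 0.15, and in the tibialis anterior from 1383 to 315 CPM, -2.19 ± 0.21. Ppp1cb, the catalytic subunit of myosin phosphatase, fell in the diaphragm, soleus and tibialis anterior by 0.65, 0.59 and 0.89 on the log2 scale. Ppp1r12a, its targeting subunit, rose in the gastrocnemius by 0.86.

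Among 15 heavy chains and other thick filament and M-band partners, 2 rose and 1 fell in the diaphragm and likewise in the gastrocnemius, 4 rose and 1 fell in the soleus, and 2 rose and 4 fell in the tibialis anterior. Myh3, the embryonic heavy chain, rose in all 4, by 1.60, 4.07, 2.45 and 3.79 in that order. Myh4, the fastest adult heavy chain, rose in the soleus by 3.08 ± 0.44 and fell in the gastrocnemius and tibialis anterior, with changes of -1.27 and -1.5. Myh1, another fast heavy chain, rose in the soleus by 3.22 ± 0.63.

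The fast light chains stood beside other fast fibre genes in the soleus, where 9 of 12 rose, with a median log2 change of 2.12. Pvalb, a calcium buffer of fast fibres, went from a median of 0.397 to 31.7 CPM there, Actn3, the fast Z-disc actinin, from 6.65 to 90.1, and Tnnt3, fast troponin T, from 80.0 to 311. The old soleus still held 2.62% of the Pvalb level of the old tibialis anterior, 1.88% of Actn3 and 0.338% of Myh4. In the gastrocnemius 6 and in the tibialis anterior 7 of the 12 fast genes fell, as Mybpc2 did, and 1 rose in the diaphragm. Of 10 slow fibre genes, 3 fell in the soleus (Tpm3, Atp2a2 and Myoz2), and in the tibialis anterior 3 fell and 2 rose, while 2 rose in the gastrocnemius and 1 in the diaphragm.

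Genes linked to loss of nerve contact mostly rose beside Mybph. Of 14 such genes, 11 rose in the diaphragm and 11 in the gastrocnemius, while the soleus had 13 and the tibialis anterior 12, and Ache, which codes for acetylcholinesterase, fell in the gastrocnemius and tibialis anterior. Their summed level at 27 months ran from 1133 to 5854 CPM (tibialis anterior), 1055 to 4123 (gastrocnemius), 808 to 4261 (soleus) and 334 to 1236 (diaphragm), against highest values at 6 months of 346, 423, 776 and 256. Chrna1, the acetylcholine receptor alpha subunit, changed by 5.35, 4.82, 2.55 and 1.29 in the same order. Whether these genes have a part in the change of Mybph was not tested.

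The gene whose 28 group means of log2 CPM were most like those of Mylpf was Pvalb, with a Pearson r of 0.997, followed by Tnnt3 and Tnnc2 (0.993 and 0.987). For Mybpc2 they were Actn3, Myh1 and Mdga1 (0.993, 0.993 and 0.992), and for Myl2 Tnnc1, LOC102546391 and Tnnt1 (0.994, 0.988 and 0.95). Myl1 came closest to Nomo1, Setd7 and Tle1 (0.991, 0.985 and 0.982), and Myl3 to Rd3l, Fzd9 and Magea11 (0.991, 0.984 and 0.978). The ranking ran over 10399 genes with a mean log2 CPM over 0, and the groups share muscles, collection days and scaling.

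For Mybph the leading genes were Cdkn2b, Akip1 and Atp6v0d1 (0.969, 0.963 and 0.961), and for Mybpc1 Zkscan3, Nek7 and Thoc7 (0.961, 0.933 and 0.920). The genes with the lowest r were Tmem63a for Mylpf (-0.983), Stk39 for Myl1 (-0.987), Scn3a for Myl2 (-0.946), Vps37b for Myl3 (-0.979), Dennd6a for Myl6b (-0.947), Cfp for Mybpc1 (-0.915), Frk for Mybpc2 (-0.995) and Oxct1 for Mybph (-0.963).

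The tissue carried its label: summed over 8 skeletal muscle markers such as Acta1 and Ckm, young libraries ran from 53492 to 154853 CPM and old ones from 33828 to 99069, and 3 of these markers fell in the tibialis anterior, 1 in the soleus and 1 in the gastrocnemius. Nppa, a cardiac marker, was at most 0.262 CPM. Of 10 cardiac and smooth muscle markers in the files, 4 rose in the gastrocnemius, 4 in the tibialis anterior and 1 each in the soleus and diaphragm, and 1 fell in both soleus and tibialis anterior. Markers of other cells moved with the old muscles as well. Macrophage markers rose in 9 of 10 in the gastrocnemius and tibialis anterior, from summed levels of 169 to 272 CPM up to 292 to 520.5 in the first and of 79.4 to 132 up to 159 to 352 in the second, and in 2 of 10 in the soleus. T cell markers rose in 3 of 9 tested in the diaphragm and in 5, 4 and 6 of 7 in the gastrocnemius, soleus and tibialis anterior, with 1 falling in the soleus. Adipocyte markers rose in 6 of 10 in each limb muscle, with 1 falling in the soleus and 1 in the diaphragm. Their summed level in the soleus nevertheless fell, from 1927 to 2272 CPM at 6 months down to 877 to 1782 at 27 months. Its median went from 386 to 486 CPM in the gastrocnemius and from 326 to 402 in the tibialis anterior. Schwann cell markers rose in 2, 2 and 3 of 8 in the limb muscles with 2 falling in the gastrocnemius, while 2 of 10 endothelial markers fell in the gastrocnemius and tibialis anterior and 1 in the soleus. Red cell markers rose in 1 of 6 in the diaphragm and 1 of 5 in both the soleus and the tibialis anterior. Clock genes, which follow the hour of collection, were called in 9 of 13 for the diaphragm, 7 for the gastrocnemius, 9 for the soleus and 10 for the tibialis anterior. The part of any of these in the results was not tested.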

How the data were processed

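Total RNA of 4 muscles was sequenced as paired-end, strand-specific libraries after removal of ribosomal RNA. The authors aligned reads with the ArrayStudio pipeline to a rat B6.0 reference and counted them on an in-house gene model based on RefSeq; the version is not given in the sources used here. The deposited values are raw counts per gene symbol, 1 file per library, and 494 of 17315 symbols stand on more than 1 line, none of them among the 8 genes. Groups came from the muscle and age in the labels, and with no animal given p-values measure the spread between libraries.

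Libraries were scaled by TMM in edgeR 4.0.16. Genes passed filterByExpr (minimum count 10, minimum total 15) in each muscle, and all 8 passed in each. Changes with age were fitted with limma-voom (limma 3.58.1, R 4.3.3) per muscle over 7 ages, and muscle pairs and interactions in 1 fit of all 28 groups. Calls needed a Benjamini-Hochberg adjusted p under 0.05 over all genes tested and more than 1.5-fold. Intervals are 95% from the normal distribution. CPM are from TMM over all libraries, with a prior count of 0.5 for log2. Alternatives were DESeq2 1.42.0, edgeR's quasi-likelihood test, RLE and total-count scaling, no filter, Bonferroni, a 2-fold threshold, sample weights, a replicate block, single libraries left out and, chosen after seeing the data, all libraries that stand apart left out. The fits were tested on simulated data. Figures used matplotlib 3.10.9. The genes and lists were chosen with earlier results of these data known. All 8 genes are named, and of the lists the genes the text singles out were chosen after their values were seen. Of the listed genes Myl10, Myl5, Mylk4, Ttn, Obsl1, Myom3, Neb, Hba-a1, Hba-a2 and Hlf were not analysed here. The genes most like Myl6b are not reported here.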

Additional observations from a re-analysis of the deposited data

Results flagged for a closer look

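Changes from 6 to 27 months that differed between muscles are given as the first muscle minus the second on the log2 scale, all past the threshold of the interaction test in limma-voom. For Mylpf the difference was 2.82 for soleus minus diaphragm, 3.09 for soleus minus gastrocnemius and -3.10 for tibialis anterior minus soleus. For Myl1 it was 1.15, 1.15 and -1.28 in the same order. For Mybpc2 it was 1.16, 2.49 and -2.56 in that order, and -1.33 for gastrocnemius minus diaphragm and -1.41 for tibialis anterior minus diaphragm. For Myl3 it was -0.60 for gastrocnemius minus diaphragm and -0.88 for tibialis anterior minus diaphragm, where Myl2 had -0.69. For Mybph it was 1.11 for tibialis anterior minus diaphragm, 1.14 for soleus minus gastrocnemius and 1.40 for tibialis anterior minus gastrocnemius, where Mybpc1 had -0.80. Of these, the Mybpc2 difference of soleus minus diaphragm had an adjusted p of 0.0423 in limma and became 0.64 in edgeR with an adjusted p of 0.366, and with the replicate block 0.83 (limma adjusted p = 0.133). The Myl3 difference of gastrocnemius minus diaphragm fell within 1.5-fold in edgeR (-0.51), with the replicate block (-0.58) and with sample weights (-0.48), and by the total count it was -0.30 (limma adjusted p = 0.150). The Myl3 difference of tibialis anterior minus diaphragm was -0.55 by the total count, within 1.5-fold. The Myl2 difference of tibialis anterior minus diaphragm was lost in edgeR (-0.52, adjusted p = 0.0668) and by the total count (-0.36, limma adjusted p = 0.196). The Mybph difference of tibialis anterior minus diaphragm was 1.01 with sample weights (limma adjusted p = 0.0522). With Bonferroni 8 of the 18 were lost.

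Single libraries far from their group were looked for in the 24 cases of a gastrocnemius group small enough to test, and chance marks about 1 in 20 groups. Replicate 0 at 21 months was lowest for Mybph at 7.39 log2 CPM, with the next library at 8.06. Replicate 2 at 24 months was lowest for Myl6b at 0.095 log2 CPM, with the next at 1.77. Replicate 4 at 6 months was highest for Mylpf at 13.49 log2 CPM, with the next at 13.25, and it is also a library that stands apart over all genes.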

How the results depend on the processing

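Of 4200 alternative values for single genes, 4067 kept their call or lack of one, 108 of them with a change of sign where neither value was called, and no called value reversed. The 11 calls at 27 months became 8 to 12 under the alternatives and 10 to 12 with single libraries left out (soleus 3 to 5, tibialis anterior 4 to 5, gastrocnemius 2, diaphragm 1). The diaphragm had 0 calls with Bonferroni and 2 with sample weights. The tibialis anterior had 2 with a 2-fold threshold and 2 with total-count scaling. Over all older ages there were 14 calls with a 2-fold threshold, and differing changes fell to 10 with Bonferroni. Without the 15 libraries that stand apart there were 11 calls at 27 months, with Mybpc1 in the soleus lost at -0.57 and Myl2 in the tibialis anterior gained at -0.67. Total-count scaling moved the median of all genes by 0.041 in the diaphragm and 0.15 in the soleus. The cause was not tested.

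Replicate numbers recur across groups. Same-numbered libraries correlated over 0.1 in 260 of 468 pairs across muscles (165 best with their own number), a hint that some numbers mark 1 animal within an age. Across ages 69 of 273 did (33 best), where no animal can be shared because rats were killed at collection. In no pair of muscles at 6 or 27 months, the ages compared between muscles, did all same-numbered pairs exceed 0.1, whereas all 12 did for diaphragm and tibialis anterior at 12 and 24 months and for soleus and tibialis anterior at 24 months. Most pairs of some muscles did. At 6 months 11 of 12 exceeded 0.1 for soleus and tibialis anterior (10 best with their own number) and 10 of 12 for diaphragm and tibialis anterior (9 best). At 27 months 11 of 12 did for diaphragm and tibialis anterior (5 best). With the gastrocnemius at 6 months it was 1, 2 and 1 of 10 for diaphragm, soleus and tibialis anterior. The block was kept as an alternative, and the main tests between muscles ignore any sharing of animals. With the replicate block, within an age in the fit of all muscles, there were 38 calls between muscles at 6 months and 31 at 27 months, as without it, and 16 differing changes, without Mybpc2 of soleus minus diaphragm and Myl3 of gastrocnemius minus diaphragm. Within each muscle the block joined different rats of different ages, so it did not pair animals. There it gave 11 calls at 27 months and 26 over all older ages. The calls given above with that block for Myl6b and Mybph share this limit. Low counts limit Mybpc2 in the soleus and Myl6b in all muscles.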
